A study of Homo sapiens with 6 samples.

Results

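The genes NOTCH1, NOTCH2, NOTCH3, JAG1, DLL1, HES1, HEY1, SOX9, SOX4 and ALDH1A3, which belong to the Notch pathway or mark immature and dedifferentiating beta cells, were followed through the accessible chromatin of a human beta cell line. Accessible regions were tied to the genes by position alone. Promoter regions were those that reached to within 2 kb of a gene's transcription start site (TSS), counting every protein-coding transcript in GENCODE 44. A distal region was any other region whose midpoint lay nearest to a protein-coding TSS of the gene, within 100 kb. This gave 75 of the 108542 regions of the deposited table, 14 promoter regions and 61 distal regions. All 10 genes had at least 1 region.

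Chromatin accessibility was profiled by ATAC-seq, in which a transposase inserts sequencing adapters into open DNA, in EndoC-βH3 cells. It is a human beta cell line of fetal origin that proliferates owing to transgenes for SV40 large T antigen and hTERT that an inducible Cre recombinase (CreER) can excise. The senescent group (3 libraries) had received 4-hydroxytamoxifen (4-OHT) for 3 weeks to activate CreER, and the non-senescent group (3 libraries) was the untreated control. Each library was made from 100000 cells, all cells are of a single line, and no source used here says that the libraries of a group were separate cultures. The table holds no value for a single library. Its fold changes and p-values are the authors' own comparison of senescent with non-senescent cells and were not used, so no difference between the groups is given below. What is given for each region is its mean signal, which is the authors' mean over all 6 libraries of the reads under the region after scaling for library size. It has no replicate error, both groups are pooled in it, and the depth of each library is not known from it. Since wide regions collect more reads, levels were compared between regions as mean signal per kb of region. Without values per library, genes with a like pattern over samples could not be sought.

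Notch receptors are membrane proteins that, once bound by a Jagged or Delta ligand on a neighbouring cell, are cleaved so that their intracellular part enters the nucleus and joins the DNA-binding protein RBPJ. Among the genes this complex switches on are HES and HEY genes, which encode transcriptional repressors. In the developing pancreas this signal keeps cells in a progenitor state and holds back the endocrine programme, and SOX9 and ALDH1A3 are known as markers of progenitors and of beta cells that lose their identity.

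The label of beta cells was checked against marker genes. All 18 listed beta cell markers had a promoter region, with a median of 1150.2 mean signal per kb at the strongest one, against 686 over the 15493 protein-coding genes with a promoter region. Above that value lay 12 of the 18, among them PDX1 at 2057 and INS at 1427, while ABCC8 (589), SLC30A8 (541), UCN3 (439.6), KCNJ11 (435), IAPP (435) and G6PC2 (286) lay below it. Of the acinar markers 4 of 8 had one (median 97.5 per kb), of the duct markers 5 of 6 (147), of the alpha and delta cell markers 7 of 7 (533), of the fibroblast and endothelial markers 5 of 8 (99.7), and of the blood cell markers 2 of 6 (531). Single markers of other cell types were nevertheless open, such as the acinar gene CPA1 at 1298 per kb, the duct gene MUC1 at 1418 and the leptin receptor gene LEPR, listed for alpha and delta cells, at 1896.

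Short stretches of sequence (hg38, plus strand, 5′ to 3′) are shown because the Notch nuclear complex reads DNA at RBPJ motifs, and because matches to the CTCF motif lay in the strongest distal regions of SOX9 and ALDH1A3. The first is the part of the HES1 promoter (RefSeq, GRCh38.p14; chr3:194136039-194136116, from -109 to -32 relative to the TSS) that holds a pair of facing RBPJ motifs in capitals. The core TGGGAA starts at -84, and TTCACA, which reads TGTGAA on the other strand and departs from the core, starts at -62, with 16 bases between them. A further TGGGAA lies between them, left in lower case because it is not part of the pair.
HES1 promoter: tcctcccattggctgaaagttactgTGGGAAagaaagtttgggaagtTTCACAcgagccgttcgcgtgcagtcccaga
The next is the strongest distal region of HES1 in its central 300 bases (chr3:194112523-194112822), where the only listed motif found was a SOX motif, in capitals.
HES1 distal: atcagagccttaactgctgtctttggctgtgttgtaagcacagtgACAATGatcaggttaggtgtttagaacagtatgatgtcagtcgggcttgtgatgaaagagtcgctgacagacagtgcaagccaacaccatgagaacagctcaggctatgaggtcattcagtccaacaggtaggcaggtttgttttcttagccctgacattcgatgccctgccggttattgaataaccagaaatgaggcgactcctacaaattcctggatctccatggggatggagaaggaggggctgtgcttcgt
A further distal region of HES1 held the longer RBPJ motif GTGGGAA (chr3:194104262-194104298), in capitals.
HES1 distal, RBPJ: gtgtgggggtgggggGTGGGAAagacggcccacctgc
The last group shows the matches to the CTCF core, in capitals, in a distal region of NOTCH3 (chr19:15150590-15150631), of SOX9 (chr17:72173649-72173690) and of ALDH1A3 (chr15:100849671-100849703).
NOTCH3 distal, CTCF: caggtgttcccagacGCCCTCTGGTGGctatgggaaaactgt
SOX9 distal, CTCF: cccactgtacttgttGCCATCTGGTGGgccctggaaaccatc
ALDH1A3 distal, CTCF: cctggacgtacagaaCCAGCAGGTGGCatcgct

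The 10 genes spanned nearly the whole range of promoter accessibility. Promoter regions were found at 9 of them, against 15493 of 19663 protein-coding genes (78.8%), and the exception was the receptor gene NOTCH3. The strongest region of a gene is taken as that of highest mean signal. Medians of promoter values over all genes, and shares of genes with a lower promoter value, refer to the 15493 genes with a promoter region. By the mean signal per kb of the strongest promoter region, HES1 came first at 1790.0, followed by JAG1 at 994, DLL1 at 978, HEY1 at 942, NOTCH2 at 812, SOX4 at 457, NOTCH1 at 225, SOX9 at 149.6 and ALDH1A3 at 39.7. The value of HES1 was 45.1 times that of ALDH1A3. As pooled means these values carry no spread, so it cannot be said which neighbours in this order differ, and JAG1, DLL1 and HEY1 lay close together. The ligands and the target repressors were all above the median of 686 over all genes, NOTCH2 alone of the receptors was above it, and SOX4, SOX9 and ALDH1A3 were all below it. For DLL1 this rests on a region over an alternative TSS that is also a promoter region of FAM120B. The regions beside its canonical TSS had 256 and 384 per kb, below that median. Of the 14 promoter regions, 7 exceeded the median per kb of all 20094 promoter regions, which was 507.

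**Figure D1:**
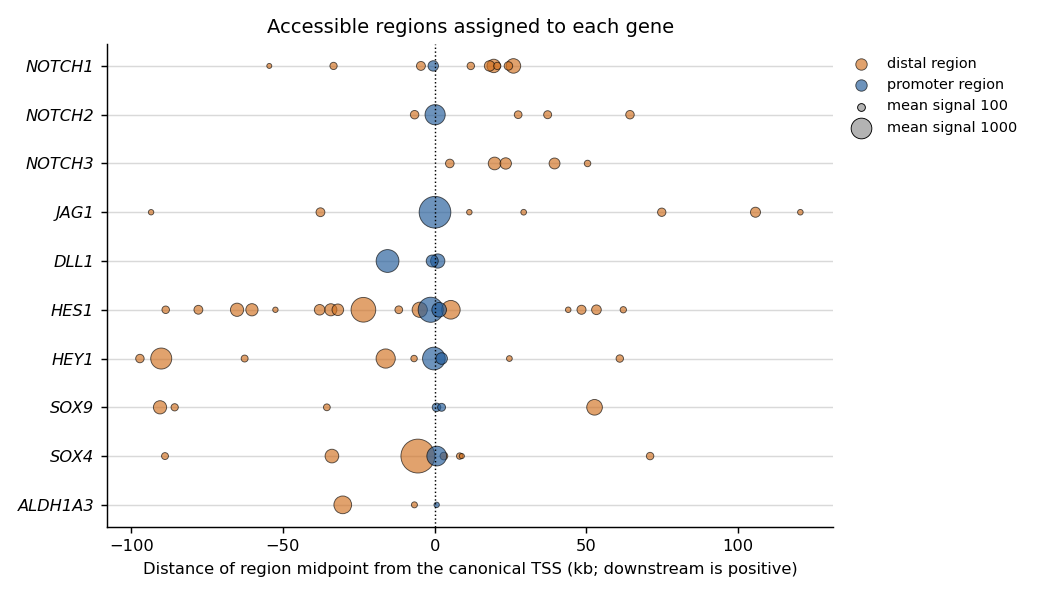
Position of the 75 accessible regions of the 10 genes, as the distance of the region's midpoint from the canonical TSS of its gene in kb (downstream positive), with circle area growing with the authors' mean signal over all 6 libraries. HES1 has 16 distal regions on both sides of its TSS, NOTCH3 has none at the TSS, and the largest circle of SOX4 lies 5.53 kb upstream of the TSS.

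The distal regions ranged from weak to strong. Of the 61, 41 exceeded the median mean signal per kb of all 88448 distal regions (168), with a median of 269.6, and 7 were above the 90th percentile. HES1 supplied 12 of the 41. Against the 55158 distal regions within 100 kb of a protein-coding TSS (median 187), which are subject to the same limit, the count was 38 of 61. By midpoint, 41 of the 61 were intergenic, 17 intronic, 2 in a coding exon and 1 in an untranslated region (UTR), and 24 lay inside a long noncoding RNA (lncRNA) gene. Upstream of the canonical TSS lay 30 of them, 15 were within 10 kb of a TSS of their gene and 21 were beyond 50 kb. The assignment rests on protein-coding TSSs. An alternative allowed the TSSs of every transcript of genes of every type, noncoding transcripts of the members included. Then 19 regions had a member as the nearest gene, and the counts of HES1, HEY1 and SOX9 went from 16, 7 and 4 to 0 each. That of NOTCH1 went from 9 to 3, and that of NOTCH2 rose from 4 to 7.

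**Figure D2:**
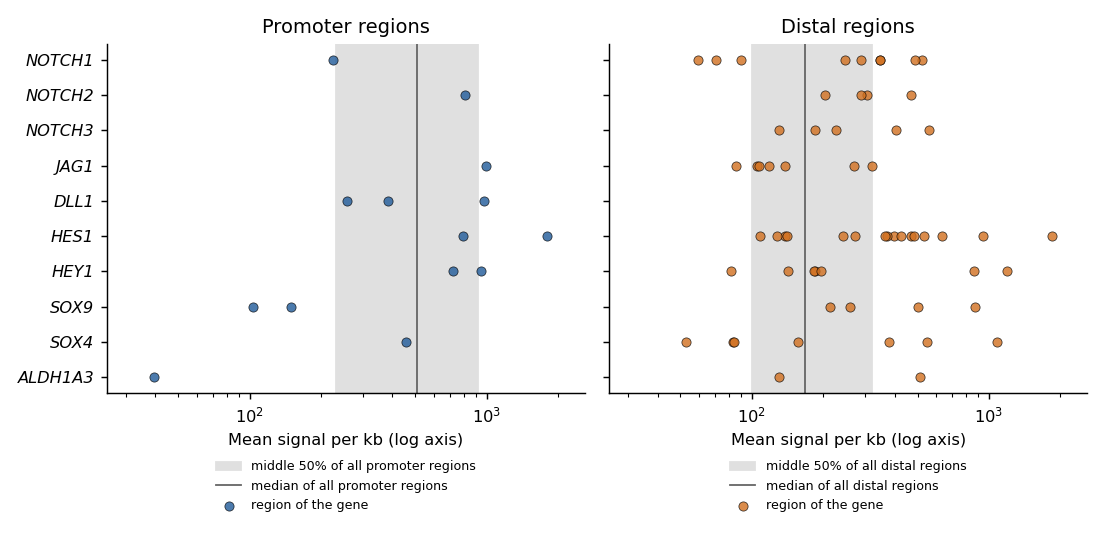
Mean signal per kb (log axis) of each promoter region (left) and distal region (right) of the 10 genes, over the middle 50% (grey band) and the median (line) of all promoter or all distal regions. The promoter regions of NOTCH1, SOX9 and ALDH1A3 lie left of the band, and the distal regions of HES1 reach 1841 per kb.

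Among the receptors, NOTCH1 had a weak promoter and many regions inside the gene. Its single promoter region (chr9:136546021-136546995), which covers the canonical TSS, had a mean signal of 219, or 225 per kb, and 15.01% of genes with a promoter region had a lower value. The TSSs of the noncoding genes NALT1 and MIR4674 lie in the same region. Its 9 distal regions had mean signals from 12.7 to 473, with a median of 129.3. The strongest were intronic, at chr9:136519632-136520541 (mean signal 473, 519 per kb, 25962 bp downstream of the TSS), at chr9:136525887-136527261 (397, 288 per kb) and at chr9:136527632-136528266 (219.8, 346 per kb). An upstream region 4.52 kb from the TSS had a mean signal of 147, and a small intronic region 24.3 kb downstream had 129.3. Thus 6 of its 9 distal regions lay within the gene and downstream of the TSS, and per kb the strongest distal region was 2.31 times the promoter region. With 8.64 distal regions per 100 kb of genome nearest to its TSSs, NOTCH1 was denser than 93.8% of genes.

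NOTCH2 had the opposite arrangement. Its promoter region (chr1:120068915-120070089, midpoint in a UTR of the gene) covered the TSS with a mean signal of 954, or 812 per kb, above 58.9% of genes. All 4 distal regions lay in introns, with mean signals of 129.9, 128.7, 108.5 and 99.05 at 64.4, 6.60, 37.2 and 27.5 kb from the canonical TSS. Per kb they had 304, 204, 289 and 469, all below the promoter region, and the ratio for the first was 0.375. NOTCH3, the receptor best known from vascular smooth muscle, had no region within 2 kb of any of its 3 protein-coding TSSs. The region nearest to one lay 3943 bp away. Its 5 distal regions had mean signals of 348, 271, 244, 133.6 and 55.7, and 4 of them fell inside the gene. The leading region (chr19:15180805-15181661, 406 per kb) was intronic, and those at chr19:15177325-15177810 (558 per kb) and chr19:15160943-15162024 (225 per kb) had their midpoint in a coding exon. The intronic region 4998 bp downstream of the canonical TSS (chr19:15195636-15196358, 185 per kb) held the longer RBPJ motif. The weakest region, intergenic and 50.4 kb away, held the CTCF core shown above.

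The ligand genes both had a promoter region above the median of genes, that of DLL1 shared with another gene, and no or mostly weak distal regions. JAG1, which encodes a membrane-bound Jagged ligand, had a single promoter region of 2429 bp (chr20:10672669-10675097), covering the TSS with a mean signal of 2414. Undivided, this was higher than in 93.4% of genes, and per kb (994) higher than in 69.3%. A TSS of the noncoding gene ENSG00000270792 lies in the same region. The 7 distal regions of JAG1 were weak, with mean signals from 23.9 to 200.2 and a median of 31.5, and only 2 exceeded the distal median per kb. The strongest (chr20:10567960-10568583, 321 per kb) lay 105.7 kb downstream of the canonical TSS, in an intron of the neighbouring gene SLX4IP, and its midpoint was 79757 bp from an alternative TSS of JAG1. The next, with mean signals of 144.5, 123.5, 31.5 and 28.6, lay 37.6 kb upstream and 74.8, 29.3 and 120.5 kb downstream. The JAG1 ratio of strongest distal to strongest promoter region, 0.323 per kb, was the lowest of the 8 members that had both.

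DLL1, which encodes a Delta ligand, had 3 promoter regions and no distal region. The canonical TSS was not covered. Regions lay on either side of it, at chr6:170289181-170290944 (mean signal 452, 256 per kb, 1.02 kb downstream) and chr6:170291480-170292276 (306, 384 per kb, 0.80 kb upstream). The strongest region (chr6:170305968-170307225, mean signal 1229.8, 978 per kb) lay over an alternative TSS, 15.5 kb upstream. All 3 were also promoter regions of the neighbouring gene FAM120B, so the signal cannot be assigned to either gene. When the regions of each gene were summed before division by length, DLL1 moved from the 68.5th to the 40.7th percentile. Only 8.03 kb of genome lie nearest to a DLL1 TSS, and 6.77% of genes have less, so there was little room for a distal region.

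HES1, which encodes a repressor that Notch switches on directly, stood at the upper end of the 10 genes at promoter and distal regions alike. Its promoter regions flanked the TSS (position 194136148 of chromosome 3). The upstream region (chr3:194134433-194135268) had a mean signal of 1496, or 1790.0 per kb, higher than in 91.9% of genes, and the downstream region (chr3:194137342-194137945), in the gene, had 479, or 792 per kb. No region was listed from -879 to 1193 bp relative to the TSS, a span of 2073 bp, so that the paired RBPJ motifs shown above lay outside every listed region. Why this span is empty was not tested. Among genes with a promoter region, 90.4% had a region over a TSS, and among the 9 such members 6 had. The upstream region also covers the TSS of the noncoding gene ENSG00000289385. The count of promoter regions of HES1 fell to 1 with a window of 1 kb and to 0 with 0.5 kb.

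The 16 distal regions of HES1 were the most of the 10 genes, and 98.1% of all genes had fewer. The genome nearest to HES1 is wide, at 200 kb. Among the 2252 genes with at least 195 kb, whose median was 7 distal regions (interquartile range 4 to 12), 85.2% had fewer and 289 had more. Their mean signals ran from 23.3 to 1449 with a median of 205, and 12 of 16 exceeded the distal median per kb. The strongest (chr3:194112279-194113065), 23.5 kb upstream and intergenic, had 1841 per kb, above 99.1% of all distal regions and slightly above the strongest promoter region of the gene (ratio 1.03). Next came a region 5.34 kb downstream (chr3:194140844-194142122, mean signal 809, 632 per kb), a region 4.91 kb upstream (chr3:194130962-194131515, 520.3, 939 per kb) over the TSS of LINC02924, and a pair 65.1 and 60.2 kb upstream with mean signals of 382 and 320.5. A group of 3 regions, spanning 6564 bp between 37.9 and 31.9 kb upstream, had mean signals of 227, 313 and 283 and lay in the lncRNA gene ENSG00000229964. Of the distal regions, 11 were upstream and 5 downstream.

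HEY1, a repressor related to HES1, combined an open TSS with far upstream regions. Its main promoter region (chr8:79767369-79768657) covered the canonical TSS with a mean signal of 1214, or 942 per kb, above 66.7% of genes. The other (chr8:79765267-79765661), within the coding sequence, had 283, or 717 per kb. It lay 1801 bp from the nearest TSS, just inside the window of 2 kb. Of the 7 distal regions, the first pair stood out with mean signals of 1037 (1193 per kb, 90.1 kb upstream) and 859 (865 per kb, 16.1 kb upstream), above 97.1% and 94.4% of all distal regions per kb. The others had 127.9, 87.5, 70.8, 54.5 and 33.4. The strongest distal region was 1.27 times the promoter region per kb. Both strong regions lay in the lncRNA gene ENSG00000249328. The nearer of them covered a TSS of the noncoding gene LINC01607, as did the main promoter region.

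**Figure D3:**
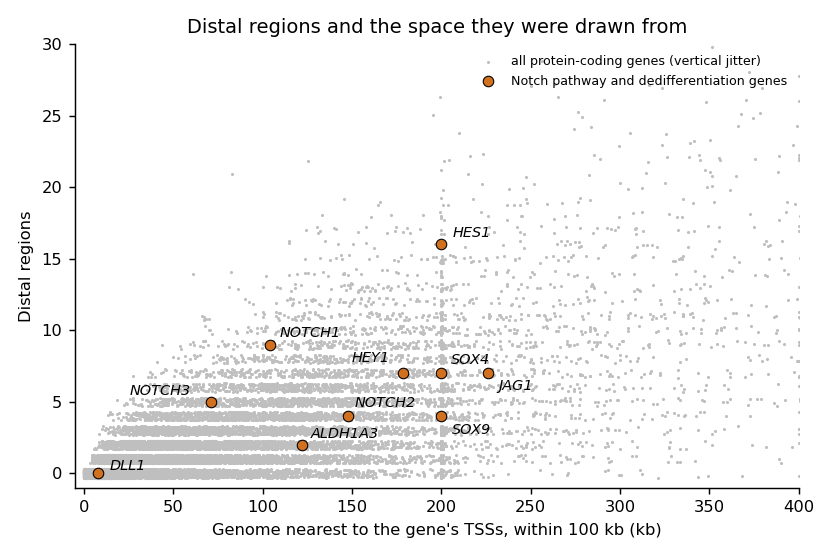
Number of distal regions against the length of genome, in kb, that lies nearest to a gene's protein-coding TSSs within 100 kb, for all protein-coding genes (grey, jittered vertically) and the 10 genes (orange). HES1 has 16 regions in 200 kb while SOX9 has 4 in the same space, and 314 genes beyond 400 kb or 30 regions are not drawn.

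The 3 progenitor and dedifferentiation genes all had promoter regions below the median of genes and, per kb, stronger distal than promoter regions, and SOX9 and ALDH1A3 had the lowest promoter values of the set. SOX9, a transcription factor of pancreatic progenitors and duct cells, had 2 promoter regions, neither over the TSS. The nearer one (chr17:72121193-72122070) began 173 bp downstream and had a mean signal of 131.4, or 149.6 per kb, and the other (chr17:72122792-72123823) had 107, or 103 per kb. Only 9.33% of genes with a promoter region had a weaker strongest one. The distal regions had mean signals of 554, 384, 82.2 and 65.8. The strongest (chr17:72173398-72174034, 869.5 per kb, above 94.4% of distal regions) lay 52.7 kb downstream, and the next (chr17:72030143-72030905, 503 per kb) 90.5 kb upstream. All 4 exceeded the distal median per kb, and the strongest was 5.81 times the promoter region. The strongest held the CTCF core shown above and covered a TSS of the lncRNA gene ENSG00000288605. With 4 regions in 200 kb, SOX9 had fewer than most genes of that isolation, of which 22.8% had fewer still.

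SOX4, a transcription factor of endocrine progenitors that is also used by beta cells, had a wide promoter region of 1984 bp over its TSS (chr6:21593443-21595426). Its mean signal was 907, or 457 per kb, above 32.5% of genes, and undivided it was above 53.3%. A distal region 5.53 kb upstream (chr6:21586944-21589500), 2557 bp wide, had the highest undivided mean signal of the 61, 2768. Per kb it had 1083, below the strongest distal regions of HES1 and HEY1. Undivided, 99.03% of genes with a distal region had a weaker strongest region. It held 78.9% of the mean signal summed over the 7 distal regions of SOX4. The next had 411 (546 per kb, 33.8 kb upstream), 98.5, 88.6 and 70.1, and 3 of the 7 exceeded the distal median per kb. The strongest distal region was 2.37 times the promoter region per kb.

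ALDH1A3, which encodes a retinaldehyde dehydrogenase used as a marker of failing beta cells, had the weakest promoter of the 10. Its only promoter region (chr15:100880207-100880789) began 332 bp from the nearest TSS, in a UTR, with a mean signal of 23.1, or 39.7 per kb. Just 0.200% of the genes with a promoter region had a lower value, and the region is lost when a mean signal of at least 50 is asked for. In contrast, the distal region 30.3 kb upstream (chr15:100848848-100850258) had a mean signal of 723, or 513 per kb, above 86.4% of all distal regions. Per kb it was 12.9 times the promoter region, the highest ratio of the 8 members with both. It held the CTCF core shown above and covered the TSSs of the noncoding genes GCAWKR and ENSG00000232386. The remaining region, 6.66 kb upstream, had 40.7.

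Across the 8 members with both kinds of region, the strongest distal region exceeded the strongest promoter region per kb in 6. Over the 11003 protein-coding genes with both, this was so in 37.2%, with a median ratio of 0.658. That share was not matched for the number of distal regions, and more regions give more chances of a strong one. The 10 genes had a median of 6 distal regions, against 1 over all protein-coding genes. JAG1 and NOTCH2 were the members below 1. The strongest distal region took 94.7% of the summed distal signal of ALDH1A3, 78.9% of that of SOX4 and 51.0% of that of SOX9. It took 28.5% of that of HES1 and 29.0% of that of NOTCH1, where signal was shared among many regions. Per 100 kb of genome nearest to their TSSs, the 10 genes had a median of 3.30 distal regions, against 2.19 over all genes, and the values ran from 0 for DLL1 and 1.64 for ALDH1A3 to 8 for HES1 and 8.64 for NOTCH1.

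Most other genes of the Notch pathway had a promoter region, as did 78.8% of all protein-coding genes. Of 47 other Notch genes, 45 had a promoter region, and 23 exceeded the median over all genes, with a median of 727 per kb against 686. A median has as many genes above it as below, and 23 of 45 was close to that share. The lists of the machinery shared by signalling cells can be read beside the same 78.8%. All 16 genes of receptor processing and glycosylation had a promoter region (median 809.7 per kb), led by the protease gene FURIN at 1609.6, the gamma-secretase subunit gene PSENEN at 1492 and the glycosyltransferase gene LFNG at 1332. The value of LFNG came from a narrow region with a mean signal of 329, and its 3 promoter regions summed gave 269 per kb. All 10 genes of the nuclear complex and its co-repressors did too (825), led by the coactivator genes MAML1 at 1757 and EP300 at 1439 and the co-repressor gene NCOR1 at 1014. The 8 genes of inhibition and turnover had a median of 866, led by NUMB, which antagonizes Notch, at 2021, the ubiquitin ligase gene ITCH at 1226 and NUMBL at 1178.

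The lists of receptor, ligand and target genes outside the set had medians below the 686 per kb of all genes. These medians rest on 4 and 7 genes, and DLL4 and HES6 exceeded every member. Of 5 other receptor and ligand genes, 4 had a promoter region with a median of 193 per kb. DLL4, a ligand gene known from blood vessels, had 2212, DLL3 282 and JAG2 104, and NOTCH4 had no region at all. Of 8 other HES and HEY genes, 7 had a promoter region, with a median of 352. HES6 had 1809 and the next, HEYL and HEY2, 363 and 359, while HES5 had no promoter region. HES1 and HEY1, at 1790.0 and 942, were thus at or near the top of their family. Of 12 other progenitor and dedifferentiation genes, 10 had a promoter region, with a median of 385. INSM1, an endocrine transcription factor, had 1730.3, the Hedgehog target GLI1 711 and MYCL 519, while the pluripotency genes NANOG and POU5F1 had none and NANOG had no region of either kind.

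**Figure D4:**
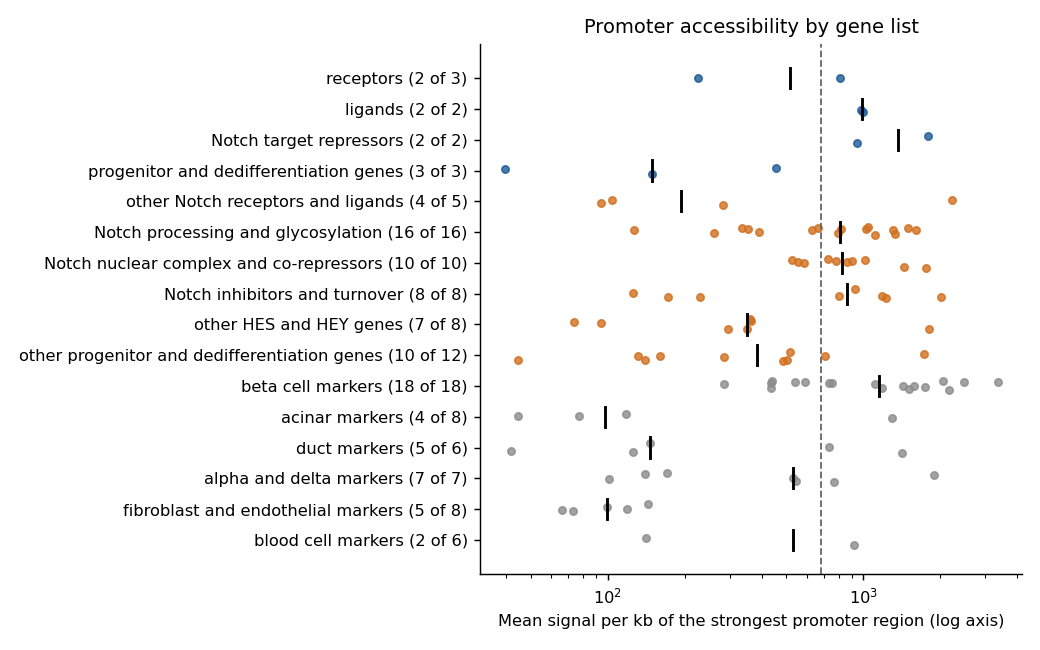
Mean signal per kb (log axis) of the strongest promoter region of each gene, by gene list, with the number of genes that have a promoter region in brackets, the list's median as a bar and the median of all genes (686) as a dashed line. Ligands and target repressors of the set (blue) lie right of the line and its progenitor and dedifferentiation genes left of it, while the other pathway genes are orange and the cell type markers grey. The point of DLL1 is a region shared with FAM120B.

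In sequence, the regions of the 10 genes were rich in GC. In the 300 bp around the midpoint, the median GC content was 69.5% in the 14 promoter regions against 65.7% in all promoter regions. In the 61 distal regions it was 54.7%, against 44.7% in all distal regions and 47% in those within 100 kb. Regions of CpG island character, taken after the values had been seen as at least 50% GC with an observed over expected CpG ratio of at least 0.6, made up all 14 promoter regions and 66.5% of all promoter regions. Among the distal regions they numbered 10 (16.4%, 95% Wilson interval 9.16 to 27.6), against 5.45% of all distal regions and 6.93% of those within 100 kb. HES1 and SOX4 held 3 each, NOTCH3 2, and HEY1 and ALDH1A3 1 each. Several of these distal regions covered the TSS of a noncoding gene, so they may be promoters of such genes. They were those of HES1 65.1 and 77.9 kb upstream, HEY1 16.1 kb upstream, SOX4 71 kb downstream and ALDH1A3 30.3 kb upstream. The intervals treat regions as independent, although regions of a gene share their surroundings.

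RBPJ motifs were counted next. Here and below, the central 300 bp is a fixed window around the midpoint. In narrower regions, down to 198 bp among the 61 distal regions, it reached past the region's ends. The core TGGGAA (either strand) lay in the central 300 bp of 17 of the 61 distal regions (27.9%, 18.2 to 40.2), against 25.8% of all distal regions, and in 2 of 14 promoter regions (14.3%, 4.01 to 39.9), against 20.8% of all promoter regions. The longer GTGGGAA, which includes the core, was in 6 distal regions (9.84%, 4.59 to 19.8), against 6.36%. These shares of all regions fell within the intervals. Over whole regions, the median width was 554 bp in the 61 and 490 bp in all distal regions. There the longer motif was in 14 of 61 (22.95%, 14.2 to 34.9), against 11.8%, which lay outside the interval. This was not particular to RBPJ. CACGCG, which HES repressors are known to bind, was in 8 of 61 (13.1%, 6.80 to 23.8), against 4.199%. The motif of E2F transcription factors was in 6 of 61 (9.84%, 4.59 to 19.8), against 3.11%. These shares of all distal regions also lay outside their intervals. Shares at like GC content were not computed over whole regions. HES1 held 4 of the 17 distal regions with the core and 3 of the 6 with the longer motif. The remaining 3 were in NOTCH3, HEY1 and SOX9. The paired arrangement (TGNGAA, then 15 to 17 bases, then TTCNCA, with TGGGAA on at least 1 strand) was rare. It was found in 26 of 35116 promoters of the RefSeq set (300 bases, from 250 before to 50 after the TSS), or 0.0740%, and HES1 was the only member of the 7 matched there. Of those 7 promoters, the windows of NOTCH2, JAG1 and SOX4 lay wholly inside a listed region, that of NOTCH1 with 278 of 300 bases, and those of NOTCH3, HES1 and ALDH1A3 not at all. Over the whole RefSeq set, 53.5% overlapped a listed region.

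Of the other motifs, CACGCG, the class C motif that HES repressors are known to bind, was in 6 of 14 promoter regions (42.9%, 21.4 to 67.4). All promoter regions held it in 14.7%, and those of like GC content in 18.2%. It was the only motif searched whose share of all promoter regions lay outside the 300 bp interval. The motif contains CpG, and the regions of like GC content were not matched for CpG. All 14 were of CpG island character, against 66.5% of all promoter regions. The 6 were at JAG1, at DLL1 in 2 regions shared with FAM120B, and at HEY1, SOX9 and SOX4. The count was 1 of 14 in the central 150 bp, against 7.68% of all promoter regions. Over whole regions it was 8 of 14 (57.1%, 32.6 to 78.6), and the 34.5% of all promoter regions lay within that interval. In distal regions the endocrine bHLH motif CAGATG was in 31.1% (20.9 to 43.6) against 31.1%, and the SOX motifs ACAATG or ACAAAG were in 32.8% (22.3 to 45.3) against 37.1%. CACGCG was in 4 of 61 (6.56%, 2.58 to 15.7), against 2.20% of all distal regions and 4.80% of those of like GC content. The CTCF core was in 3 of 61 (4.92%, 1.69 to 13.5), against 2.78%, which are the matches shown above.

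**Figure D5:**
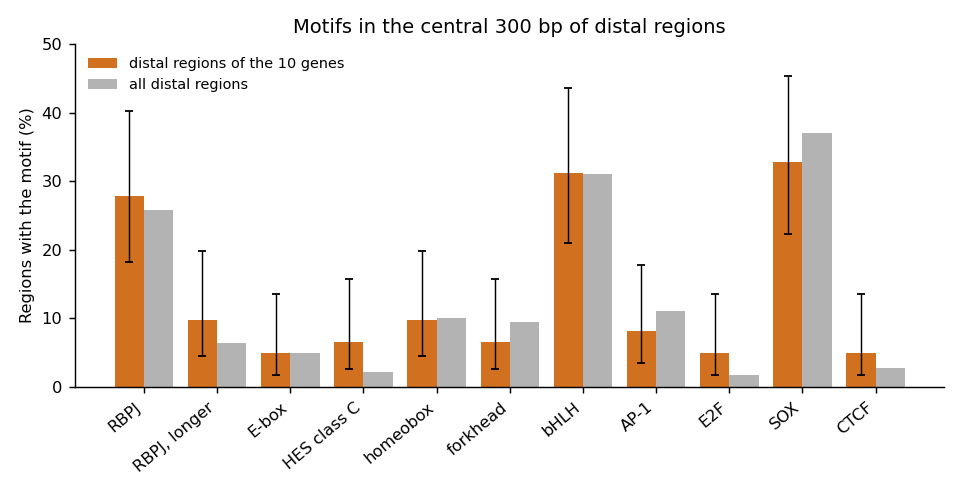
Share of distal regions, in percent, that hold each motif in their central 300 bp, for the 61 distal regions of the 10 genes (orange, with 95% Wilson intervals) and all 88448 distal regions (grey). The grey bars of the RBPJ, bHLH, SOX and CTCF motifs lie within the intervals of the orange ones. That of the HES class C motif (2.20%) lies below its interval (2.58 to 15.7), while distal regions of like GC content held it in 4.80%.

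The limits of distance set which regions were counted. The promoter regions nearest to the limit from inside were those of HEY1 at 1801 bp (mean signal 283) and of SOX9 at 1772 bp (107), and those just outside were a region of SOX4 at 2924 bp (98.5) and of JAG1 at 3252 bp (31.5), which count as distal. The farthest distal regions inside the limit were those of HEY1 at 97032 bp (127.9) and of JAG1 at 94548 bp (28.6). Just outside were a region nearest to SOX9 at 102031 bp (69.4) and to HEY1 at 103213 bp, which had a mean signal of 315, higher than at most distal regions counted.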

How the data were processed

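ATAC-seq libraries of senescent (3) and non-senescent (3) EndoC-βH3 cells were grouped by their labels. According to the study's methods, the authors trimmed reads with Trim Galore and Cutadapt, mapped them with Bowtie2 (hg38), discarded duplicates and mitochondrial reads, corrected positions for the transposase offset, called peaks with MACS2 and counted reads over the merged peaks. Versions are not given in the sources used here. The signal used is the authors' deposited mean over the 6 libraries of counts scaled by DESeq2 size factors. The deposited table's other columns are the authors' log2 fold change, standard error, Wald statistic, p-value and adjusted p-value between the groups. They were not used. There were 0 further columns of single samples.

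Region starts were read as counted from 0, and 1 was added. Against the reference hg38, 0 regions passed the end of a chromosome, and 0 overlapped a neighbour. TSSs came from GENCODE 44, motifs from hg38 and RefSeq promoters (GRCh38.p14), where 7 of the 10 genes were matched. The members and lists were chosen with earlier results of these data known. All 10 members were named, each with its promoter regions and up to 5 strongest distal regions, the 2 regions nearest to each limit, and the 3 strongest promoters of each list with those lacking a region. Other regions and marker genes were named after their values were seen. Percentiles give the share of genes or regions with a lower value. Those of genes by promoter signal count only genes with a promoter region. No test between groups was made. Alternatives were other windows, limits, TSS sets and signal filters, no division by length, sums over regions, and other motif windows and backgrounds. Assignment was tested on simulated data. Python 3.11.15, pandas 2.3.3 and numpy 2.4.6 were used.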

Additional observations from a re-analysis of the deposited data

How the results depend on the processing

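No paired analysis was possible because every value is pooled over the libraries, and for the same reason no replicate could be left out and no other normalization run. With a limit of 50 kb the distal regions numbered 40 instead of 61, and with TSSs of every transcript of genes of any type 19. The median percentile of the strongest promoter region over the members was 58.9, 55.5 undivided by length and 40.7 for summed regions. The RBPJ core was in 71.4% of promoter regions over the whole region instead of 14.3% in 300 bp, and in 45.9% of distal regions over the whole region and 14.8% in 150 bp instead of 27.9%. A longer window holds more matches by construction, and all promoter regions held the core in 53.7% and all distal regions in 39.97% over the whole region. The promoter count (14) was 10 to 13 under other windows, TSS sets and filters. The count of 45 other Notch genes with a promoter region was 43 or 44 under settings added after seeing the data. Of the values for single genes and motifs, 43 moved and 57 did not. The authors' pooled mean has no replicate error, so small differences between regions cannot be told from noise.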
